A study of Mus musculus with 8 samples.

Results

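The high-fat effect was measured in mouse liver across drinking water with and without arsenite, by setting 4 high-fat arrays against 4 low-fat arrays with water as a covariate. All 8 arrays of the series entered this comparison. The high-fat arrays were 2 of mice on the high-fat diet alone (HFD) and 2 of mice on that diet with arsenite (HFD+As). The low-fat arrays were 2 of mice on the low-fat diet alone (LFD) and 2 of mice on it with arsenite (LFD+As). All animals were male mice of the inbred strain C57BL/6J, 40 in all and 10 a group, and their ages were not given. Fat supplied 42% of calories in the high-fat diet and 13% in the low-fat diet, and the arsenite water was made with sodium arsenite to 3 mg iAs/L (inorganic arsenic). The feeding lasted 10 weeks per the labels' protocols, while the tissue label gives 90 days. Each array carried an equal mix of liver RNA from 5 mice, so replicate error here means variation among pools. The p-values within a water, and of the difference between waters, measure that variation alone. In the main effect, any difference of the diet effect between waters also goes into the residual.

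Liver of fat-fed mice takes up more dietary fatty acid, which it oxidises, stores in droplets or exports, and the need to make fatty acid from carbohydrate falls. The transcription factors SREBP1 (gene Srebf1) and ChREBP (gene Mlxipl) drive lipid synthesis in response to insulin and sugar, and PPAR-alpha, a receptor for fatty acids, drives their oxidation and the secretion of factors such as Angptl4. The liver is also the main store of vitamin A, and it clears retinoic acid through Cyp26a1, whose own gene retinoic acid switches on. Western-type diets are known to raise inflammatory signals in this organ as well.

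The quantity throughout is the deposited log2 signal of a transcript cluster, a set of probes that stands for a gene. Differences are log2 values of high-fat minus low-fat arrays with the standard error (SE) of the fit. A gene was called at an adjusted p below 0.05 (limma, Benjamini-Hochberg over 19938 genes). Albumin lay between 14.44 and 14.48 on every array, and the 10 measured hepatocyte genes of 14 listed lay between 12.1 and 14.5. Array medians lay between 7.08 and 7.18. Arrays of the same group correlated at 0.983 to 0.991 and any 2 arrays at 0.974 or more. The lowest correlation was between arrays of the same diet, and the leading principal component, with 40.8% of the variance, set HFD+As apart at 27.2 and 21.1. On that axis the other high-fat arrays lay at -16.1 and 3.25 in HFD, the LFD arrays at -17.7 and -2.99, and the LFD+As arrays at -3.88 and -10.9.

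Only 11 genes were called across both waters, 0.0552% of the 19938 tested. Of these, 5 rose (0.0251%) and 6 fell (0.0301%) on the high-fat diet. The falls were led by the retinoic acid hydroxylase Cyp26a1 and the immune ligand gene Raet1d, to 0.258 and 0.299 of their low-fat signal. The rises were led by the lipase inhibitor Angptl4 and the adipokine-type serpin Serpina12, by 1.82-fold and 1.77-fold. In all 11 genes the 4 high-fat arrays lay wholly above or wholly below the 4 low-fat arrays, which was so for 6.31% of all genes, 3.37% above and 2.94% below. Such genes are called separate here. At an unadjusted p below 0.05 there were 2838 genes (14.2%), of which 1045 were higher (5.24%) and 1793 lower (8.99%). The size of the called set rested on single arrays. It was 0 without LFD replicate 2 (3492 at an unadjusted p below 0.05), 1 without LFD+As replicate 2, 2 when either HFD replicate 2 or HFD+As replicate 2 was left out, 5 without HFD+As replicate 1, and 856 without HFD replicate 1.

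The promoter of Cyp26a1 is shown because this gene had the largest fall and because retinoic acid receptors are known to bind direct repeats of a hexamer in it. The RefSeq table covers the 250 bases before and the 50 after 1 start site, at chr19:37697558-37697857 on the + strand of GRCm38.p6. The gene's listed span begins upstream of that site, at base 37697738, inside this stretch. Capitals mark a direct repeat of AGGTCA or GGTTCA or AGTTCA, both hexamers in the same orientation with 5 bases between them, searched on both strands.
Cyp26a1 promoter: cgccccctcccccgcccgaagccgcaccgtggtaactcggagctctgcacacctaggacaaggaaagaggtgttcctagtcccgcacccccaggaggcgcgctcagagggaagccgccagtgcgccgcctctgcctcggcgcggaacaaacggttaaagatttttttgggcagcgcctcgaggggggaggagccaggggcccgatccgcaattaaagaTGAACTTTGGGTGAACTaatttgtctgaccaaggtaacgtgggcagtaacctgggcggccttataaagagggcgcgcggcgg
The repeat was found once, on the - strand, at positions -32 to -16 from the table's start site, not from the first base of the gene's span. It occurred in 20 of 32851 promoters of this length (0.0609%). Of the 20 genes that held it, 7 were tested, 4 of the 7 had a positive high-fat difference, and 1, Cyp26a1 itself, was called. Their median difference was 0.12, against -0.03 over all genes. The match is a description of the letters and not a bound site.

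Cyp26a1, which hydroxylates and so inactivates retinoic acid, had signals of 9.72 and 9.49 in HFD, 9.50 and 9.19 in HFD+As, against 11.99 and 11.79 in LFD and 10.40 and 11.54 in LFD+As. Every high-fat array lay below every low-fat array, and LFD+As replicate 1 was the lowest of the low-fat arrays. The difference was -1.95 (SE 0.22), a fold of 0.258, with an adjusted p of 0.0173 in limma. The means were 9.48 ± 0.22 in high-fat and 11.43 ± 0.71 in low-fat arrays (SD, n = 4 each). The difference was -2.28 in plain water and -1.63 under arsenite (SE 0.27 each), and each of these was called within its water. Of the 23 measured genes of 24 on the retinoid list, 6 had a positive difference and Cyp26a1 alone was called, with 4 lower and 1 higher at an unadjusted p below 0.05. Rarb, a retinoic acid receptor whose gene is a known retinoic acid target and which holds the same direct repeat, had 8.38 and 8.42 in HFD, 8.15 and 8.09 in HFD+As, against 8.86 and 8.68 in LFD and 8.38 and 8.95 in LFD+As. Those arrays overlapped, and the difference of -0.45 (SE 0.12) did not pass (adjusted p = 0.121). Rdh16, a retinol dehydrogenase, and Aldh1a1, which makes retinoic acid from retinal, were also separate between the diets, at -0.45 (adjusted p = 0.111) and -0.17 (adjusted p = 0.395). Dhrs3, which turns retinal back to retinol, lay at -0.32 (adjusted p = 0.169), Lrat, which makes retinyl esters, at -0.18, and Rbp4, the plasma retinol carrier, at 0.03. The list median was -0.12.

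Raet1d encodes a surface ligand of the NKG2D receptor of natural killer and T cells. It had 10.10 and 9.72 in HFD, 9.26 and 8.90 in HFD+As, against 11.59 and 11.49 in LFD and 10.52 and 11.33 in LFD+As. The fall was -1.74 (SE 0.16), a fold of 0.299 with an adjusted p of 0.0064 in limma. Means were 9.49 ± 0.52 in high-fat and 11.23 ± 0.49 in low-fat arrays (SD, n = 4 each). The within-water differences were -1.63 and -1.85, in plain and arsenite water in that order, and both were called. Raet1d belongs to a family of near-identical genes, so part of its signal may come from relatives that share probes. It was the most stable of the 11 and was still called in 7 of the 8 fits that each left out 1 array. Cyp26a1 and Robo1 were called in 4 of these 8 fits, and each of the remaining called genes in only 1 or 2.

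Mlxipl encodes ChREBP, the carbohydrate-responsive activator of glycolytic and lipogenic genes. Its signals were 10.71 and 10.28 in HFD, 10.01 and 10.02 in HFD+As, against 11.12 and 11.34 in LFD and 10.71 and 11.12 in LFD+As. HFD replicate 1 and LFD+As replicate 1 lay at the same value to 2 decimals, so the groups met without overlapping. The fall was -0.82 (SE 0.12), a fold of 0.567 with an adjusted p of 0.0486, and it was -0.73 in plain water and -0.90 under arsenite. In only 1 of the 8 fits without an array was it still called, where its difference ran between -0.92 and -0.72.

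Robo1, Tet2 and Slco2a1 fell less far. Robo1, a receptor for Slit guidance proteins, had 8.51 and 8.70 in HFD, 7.99 and 8.15 in HFD+As, against 9.26 and 9.28 in LFD and 8.84 and 8.98 in LFD+As (difference -0.75, SE 0.09, adjusted p = 0.0179). Tet2, an enzyme that oxidises methylated cytosine in DNA, had 7.91 and 7.81 in HFD, 7.35 and 7.34 in HFD+As, against 8.28 and 8.49 in LFD and 8.14 and 8.20 in LFD+As (difference -0.67, SE 0.09, adjusted p = 0.0328). Slco2a1, a prostaglandin transporter, had 10.76 and 10.54 in HFD, 10.36 and 10.49 in HFD+As, against 11.35 and 11.12 in LFD and 11.16 and 11.22 in LFD+As (difference -0.68, SE 0.09, adjusted p = 0.0328). In all 3 genes the HFD+As arrays were the lowest of all, and the HFD arrays lay between them and the low-fat arrays. Under arsenite these genes differed by -0.85, -0.82 and -0.76 and were called, and in plain water by -0.66, -0.52 and -0.59 and were not.

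Angptl4, a secreted inhibitor of lipoprotein lipase and a target of PPAR-alpha, had 8.72 and 8.96 in HFD, 8.88 and 8.59 in HFD+As, against 7.75 and 7.67 in LFD and 8.07 and 8.19 in LFD+As. The high-fat arrays were close together, and the LFD+As arrays were above the LFD arrays. The rise was 0.87 (SE 0.12), 1.82-fold with an adjusted p of 0.0399. It was 1.13 in plain water, where it was called, and 0.60 under arsenite, and the difference between waters had an unadjusted p of 0.0174 and an adjusted p of 0.441. Serpina12 (vaspin), known as an adipokine, had 8.20 and 8.31 in HFD, 8.75 and 8.27 in HFD+As, against 7.50 and 7.58 in LFD and 7.63 and 7.54 in LFD+As. The low-fat arrays were close together, and all high-fat arrays lay above them. The rise was 0.82 (SE 0.11), 1.77-fold with an adjusted p of 0.0328. Ifi27, an interferon-inducible gene, had 10.31 and 10.23 in HFD, 10.33 and 10.18 in HFD+As, against 9.66 and 9.74 in LFD and 9.67 and 9.71 in LFD+As. The arrays of each diet lay close together, and its difference was 0.57 in each water (main effect 0.57, SE 0.08, 1.48-fold, adjusted p = 0.0328). Ifi27 is not on the list of interferon-stimulated genes, of which 24 of 33 were measured. Of these 24, 12 had a positive difference and none was called in limma, with 2 higher and 4 lower at an unadjusted p below 0.05.

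The 2 remaining rises belonged to the protein synthesis machinery. Rpl24, a protein of the large ribosomal subunit, had 10.39 and 10.46 in HFD, 10.75 and 10.57 in HFD+As, against 10.00 and 9.74 in LFD and 10.06 and 10.03 in LFD+As. The rise was 0.59 (SE 0.09), 1.5-fold with an adjusted p of 0.0486, and the gene's 3 clusters had differences between 0.51 and 0.59. Snord33, a small nucleolar RNA that guides methylation of ribosomal RNA, lies in an intron of a ribosomal protein gene, and its signal can include that host transcript. It had 8.68 and 8.83 in HFD, 8.70 and 8.78 in HFD+As, against 8.24 and 8.12 in LFD and 7.92 and 7.91 in LFD+As. All 4 high-fat arrays lay close together, above every low-fat array. The rise was 0.70 (SE 0.09), 1.62-fold with an adjusted p of 0.0267. The next gene in order of p among the higher ones was Tff3, a secreted trefoil peptide, at 0.65 (SE 0.10, adjusted p = 0.0692).

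**Figure D1:**
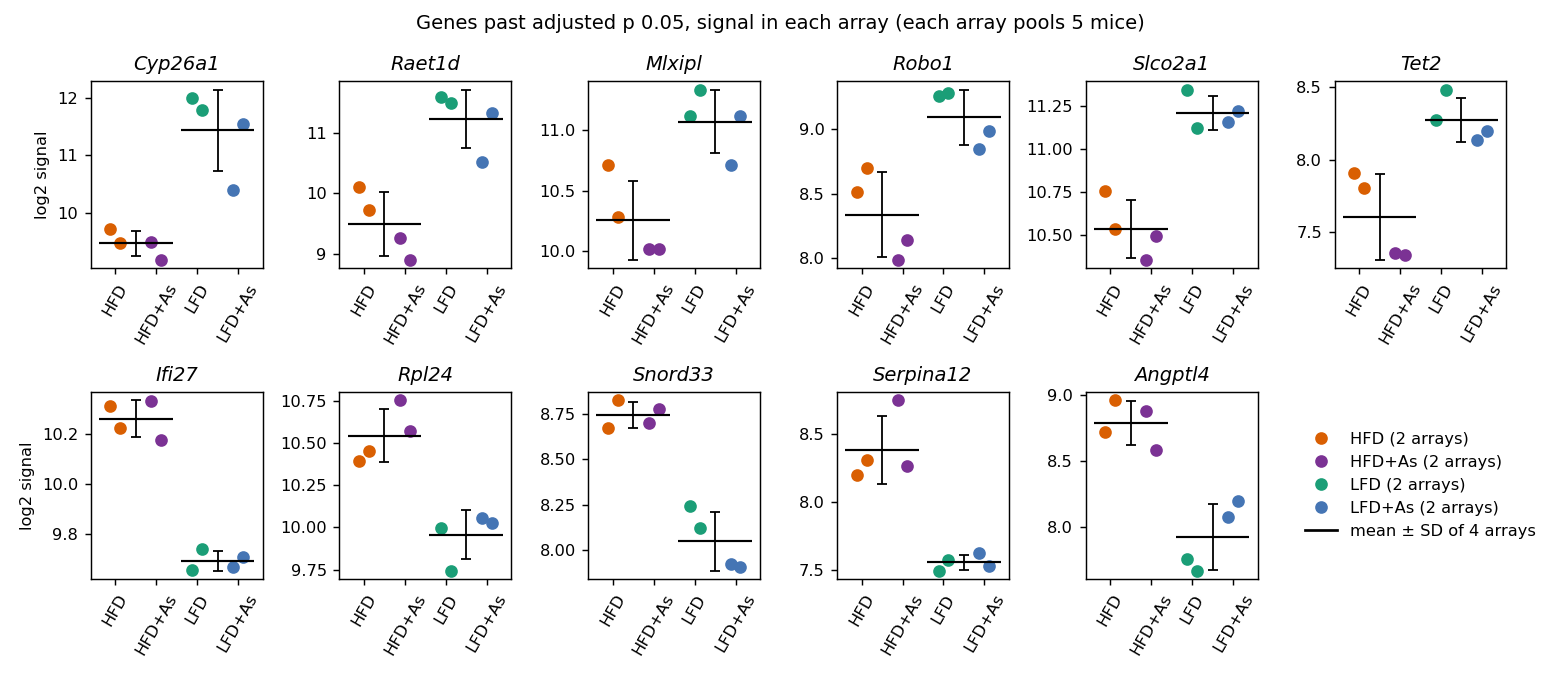
Log2 signal of each called gene in each of the 8 arrays, high-fat arrays left of low-fat arrays, with the mean and SD of 4 arrays drawn beside them. In each panel the 4 high-fat points lie wholly above or wholly below the 4 low-fat points, and Cyp26a1 and Raet1d have the largest differences of means, -1.95 and -1.74.

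The effect was then read within each water. HFD against LFD in plain water gave 13 called genes (0.0652%), 9 higher (0.0451%) and 4 lower (0.0201%), with 1626 (8.16%) at an unadjusted p below 0.05. HFD+As against LFD+As gave 165 (0.828%), 52 higher (0.261%) and 113 lower (0.567%), with 3675 (18.4%) at an unadjusted p below 0.05. Neither count was stable: after quantile normalization both were 0 (1751 and 3675 genes at an unadjusted p below 0.05). The plain-water count was also 0 without LFD replicate 1 or without HFD replicate 2, 8 without LFD replicate 2, and 2 without either HFD+As array. The arsenite count was 14 with the span trend removed, 2 without LFD+As replicate 2, 9 without HFD+As replicate 1, 26 without LFD+As replicate 1, 29 without HFD+As replicate 2, 33 without either LFD array and 506 without either HFD array. These comparisons share no array with each other, but each is contained in the main effect. Their p-values rest on 1 estimate of spread shared over all 8 arrays. A call in 1 water is therefore not independent of a small p in the other. Of the 13 genes called in plain water, 8 (61.5%) had the same sign under arsenite and 4 (30.8%) also had an unadjusted p below 0.05 there: Angptl4, Cyp26a1, Fabp2 and Raet1d. Of the 165 called under arsenite, 144 (87.3%) had the same sign in plain water and 51 (30.9%) an unadjusted p below 0.05 there. Over all genes the same sign in both waters was found for 10364 of 19938 (52%). An unadjusted p below 0.05 with the same sign was found for 12.4% of all genes under arsenite and for 5.16% in plain water. Called in both waters were 2 genes, Cyp26a1 and Raet1d, which are 15.4% of the plain list and 1.21% of the arsenite list. Across the 19938 genes, which share arrays and are not replicates, the differences in plain and arsenite water correlated at 0.18 (Pearson's r).

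Some genes called within a water had values of opposite sign in the other. Lcn2, an iron-binding acute phase protein, had 12.49 and 12.97 in HFD, 11.57 and 12.06 in HFD+As, against 9.05 and 10.28 in LFD and 12.55 and 11.40 in LFD+As. In plain water it rose by 3.06 (adjusted p = 0.0252), while under arsenite the difference was -0.16. Saa1, the acute phase serum amyloid A, had 10.08 and 10.48 in HFD, 9.07 and 8.88 in HFD+As, against 5.04 and 7.51 in LFD and 10.07 and 8.66 in LFD+As. It rose by 4.0 in plain water (adjusted p = 0.049) and lay at -0.39 under arsenite. Over both waters Lcn2 lay at 1.45 (SE 0.55, adjusted p = 0.257) and Saa1 at 1.81 (SE 0.78, adjusted p = 0.321), with overlapping arrays. In both genes the LFD arrays were the lowest of all 8, with LFD replicate 1 below replicate 2. Saa1 has close paralogs that can share probes.

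None of these gene-by-gene contrasts between waters passed on its own test. The arsenite difference minus the plain difference gave 0 called genes in limma, with 2066 (10.4%) at an unadjusted p below 0.05. For Lcn2 it was -3.22 (adjusted p = 0.203) and for Saa1 -4.39 (adjusted p = 0.272). Among the smallest p-values were Chrm3, a muscarinic acetylcholine receptor, at 0.93 in plain water and -0.45 under arsenite, and Ppard, the delta member of the PPAR family, at 0.14 and -1.64. In the other direction stood Clec2h, a C-type lectin gene, at -1.41 in plain water and -0.03 under arsenite, and Socs2, an inhibitor of growth hormone signalling, at -0.88 and 0.42. The metallothioneins Mt1 and Mt2, which bind zinc and other metals, had high signals in both high-fat groups and in LFD+As replicate 1. Mt1 had 11.54 and 11.06 in HFD, 11.47 and 10.91 in HFD+As, against 9.02 and 8.65 in LFD and 11.10 and 9.38 in LFD+As (difference 1.71, SE 0.37, adjusted p = 0.0962). Mt2 had 12.74 and 12.78 in HFD, 13.43 and 12.51 in HFD+As, against 10.09 and 9.59 in LFD and 13.24 and 11.09 in LFD+As (difference 1.86, SE 0.48, adjusted p = 0.12). For both genes LFD+As replicate 1 lay inside the high-fat range, and the groups overlapped.

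**Figure D2:**
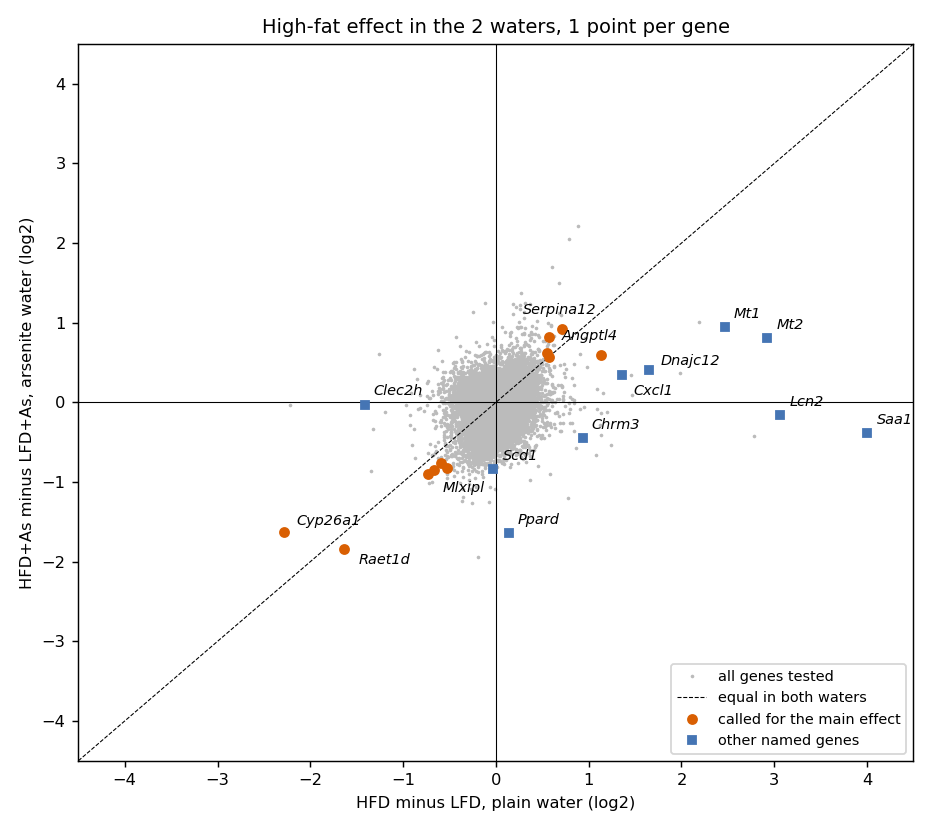
High-fat difference in log2 units for each of 19938 genes, in plain water on the x axis and under arsenite on the y axis, with the called genes as circles and other named genes as squares. The called genes lie where both differences have the same sign, which the main-effect fit favours because a difference between waters adds to its residual. Saa1 (4.0 and -0.39) and Lcn2 (3.06 and -0.16) lie along the x axis and Ppard (0.14 and -1.64) along the y axis.

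Gene lists were read next, by the count of members with a positive difference, which over all genes tested was 8083 of 19938 (40.5%). Of 28 measured genes of fatty acid synthesis, of 29 listed, 5 had a positive difference, 1 was called (Mlxipl, lower) and 10 had an unadjusted p below 0.05 as lower against 2 as higher. The list median was -0.29. The median deviation of its members from the low-fat mean was 0.05 and 0.13 in HFD, -0.77 and -0.43 in HFD+As, against 0.07 and 0.11 in LFD and -0.26 and 0.08 in LFD+As. The HFD arrays lay with the low-fat ones and the HFD+As arrays below. The list median difference was 0.04 in plain water and -0.59 under arsenite. Scd1, the delta-9 desaturase, had 14.12 and 14.08 in HFD, 13.14 and 12.97 in HFD+As, against 14.12 and 14.12 in LFD and 13.75 and 14.04 in LFD+As. It fell under arsenite by 0.84 (adjusted p = 0.0302) and lay at -0.03 in plain water, and the difference between waters had an adjusted p of 0.31. Its regulators had similar values in both waters: Srebf1 lay at -0.49 in plain water and -0.67 under arsenite (main effect -0.58, SE 0.10, adjusted p = 0.0719), beside the -0.73 and -0.90 of Mlxipl. Nr1h3, the oxysterol receptor that drives Srebf1, was separate in the other direction, at 0.35 (adjusted p = 0.118). In cholesterol synthesis 3 of 21 measured genes of 26 listed were positive, none was called in limma, 6 were lower and 0 higher at an unadjusted p below 0.05, and the median was -0.15. The 1 separate member, 4.76% of the list and near the 2.94% of all genes that were separate and lower, was Insig1. Insig1, which holds back SREBP processing, lay at -0.38 (adjusted p = 0.114), and Sqle, squalene epoxidase, at -0.15.

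Fatty acid oxidation genes had a median near 0. Of 32 measured PPAR-alpha targets and oxidation genes of 36 listed, 18 were positive, Angptl4 alone was called and the median was 0.01. With Angptl4, 5 were separate and higher (15.6%, against 3.37% of all genes). The others were Vnn1, a pantetheinase and PPAR-alpha target, at 0.51 (adjusted p = 0.0921), Eci2 at 0.38, Acadvl at 0.19 and Cpt2 at 0.10. Acot2, a mitochondrial acyl-CoA thioesterase, was separate and lower at -0.46 (adjusted p = 0.0806). Pdk4, which blocks pyruvate oxidation, had the lowest value, -0.76 (adjusted p = 0.18). Of 32 lipid droplet genes, 18 were positive, none was called in limma, 5 were higher and 4 lower at an unadjusted p below 0.05, and the median was 0.02. Fabp2, a fatty acid binding protein, had 11.16 and 11.09 in HFD, 11.41 and 11.74 in HFD+As, against 10.28 and 10.01 in LFD and 11.12 and 11.14 in LFD+As (difference 0.71, SE 0.13, adjusted p = 0.0719). It was called in plain water, at 0.98, and over both waters the arrays overlapped, since HFD replicate 2 lay below both LFD+As arrays. The droplet proteins Cidec and Cidea, which enlarge lipid droplets, both lay at 0.14 (adjusted p = 0.699 and 0.574), and Cd36, a fatty acid carrier, at -0.29 (adjusted p = 0.279).

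Genes of amino acid breakdown and the urea cycle all lay on the lower side. All 29 measured members of 34 listed had a negative difference, 15 with an unadjusted p below 0.05, although none was called in limma. The median was -0.23, against -0.03 over all genes, and it was -0.17 in plain water and -0.25 under arsenite. In 5 of the 29 (17.2%) all high-fat arrays lay below all low-fat arrays, against 2.94% of all genes. These were Cps1 (carbamoyl phosphate synthase, the entry to the urea cycle) at -0.31, Ddc (an aromatic amino acid decarboxylase) at -0.52, Etnppl (which breaks down phosphoethanolamine) at -0.83, Glud1 (glutamate dehydrogenase) at -0.19 and Nags (which makes the activator of Cps1) at -0.15. Hal, which opens histidine breakdown, had 12.71 and 12.38 in HFD, 12.14 and 12.07 in HFD+As, against 13.08 and 13.00 in LFD and 12.57 and 12.81 in LFD+As (difference -0.54, SE 0.10, adjusted p = 0.0733). Prodh, proline dehydrogenase, lay at -0.54 as well (adjusted p = 0.0876). Per array, the list median was -0.10 and -0.31 in HFD, -0.40 and -0.23 in HFD+As, against 0.06 and 0.04 in LFD and -0.11 and 0.02 in LFD+As. HFD replicate 1 and LFD+As replicate 1 overlapped by a small margin, and the other high-fat arrays lay below all low-fat arrays.

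Other hepatocyte functions had negative medians over both waters, where the median over all genes was -0.03. For the 10 measured hepatocyte defining genes it was -0.05, near that of all genes. Their array medians were 0.026 and 0.023 in HFD, -0.157 and -0.070 in HFD+As, against 0.001 and 0.022 in LFD and 0.007 and -0.017 in LFD+As. Of these 10 genes, 3 were positive, none was called in limma, and 3 were lower and 0 higher at an unadjusted p below 0.05. The separate members, both lower, were 2 (20%, against 2.94% of all genes): Cps1 at -0.31 and Hnf4a, a transcription factor of hepatocyte identity, at -0.28 (adjusted p = 0.182). Of 21 one-carbon genes measured of 26 listed, 4 were positive, none was called in limma, and 6 were lower and 0 higher at an unadjusted p below 0.05. In this list 4 were separate and lower (19%, against 2.94% of all genes): Aqp9, a channel for glycerol and arsenite, at -0.37 (adjusted p = 0.122), Dmgdh at -0.26, Bhmt at -0.18 and Bhmt2 at -0.16. Aldh1l1, a folate enzyme, lay at -0.46 (adjusted p = 0.0962). The arsenic methyltransferase As3mt lay at -0.10 (adjusted p = 0.826). Of 34 P450 and nuclear receptor genes measured of 40 listed, 5 were positive, 12 had an unadjusted p below 0.05 as lower and 2 as higher, and the median was -0.20. Cyp2d22 lay at -0.40 (adjusted p = 0.0957) and Cyp2c23 (listed by its synonym Cyp2c44), an arachidonic acid epoxygenase, at -0.69 (adjusted p = 0.0996). Mouse P450 genes sit in clusters of near copies, so their signals can be mixed. Of 25 bile acid genes all were measured, 5 were positive and the median was -0.13. Abcc2, which exports conjugates into bile, was separate at -0.36 (adjusted p = 0.102), Abcb11, the bile salt export pump, lay at -0.41 (adjusted p = 0.113), and Cyp7a1, the rate-limiting enzyme of bile acid synthesis, at -0.26 (adjusted p = 0.524). Of 25 NRF2 and glutathione genes measured of 28 listed, 6 were positive, and 3 were separate and lower (12%, against 2.94% of all genes). Gstt3, a glutathione transferase, was 1 of these 3, at -0.61 (adjusted p = 0.0937). It lay at -0.88 in plain water and -0.34 under arsenite, and the difference between waters had an adjusted p of 0.446. In gluconeogenesis and insulin signalling, 8 of 25 measured genes of 26 listed were positive, near the share over all genes, with a median of 0.05 in plain water and -0.28 under arsenite. No member of the P450, bile acid, NRF2 or gluconeogenesis lists was called in limma. At an unadjusted p below 0.05 the bile acid list had 7 lower and 1 higher, the NRF2 list 5 lower and 1 higher, and the gluconeogenesis list 10 lower and 0 higher.

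Genes of the respiratory chain and of the ribosome lay on the other side. Of 35 oxidative phosphorylation genes measured of 36 listed, 26 were positive, none was called in limma, 11 were higher and 1 lower at an unadjusted p below 0.05, and 11 (31.4%) were separate and higher, against 3.37% of all genes. The median was 0.11, with 0.12 in plain water and 0.13 under arsenite. Subunits of complex I led: Ndufb8 lay at 0.47 (SE 0.10, adjusted p = 0.0962) and Ndufa2 at 0.45 (SE 0.10, adjusted p = 0.0967). Atp5b, a subunit of ATP synthase, was the 1 member separate and lower (2.86%, against 2.94% of all genes), at -0.11. Per array the list median was 0.07 and 0.14 in HFD, 0.12 and 0.13 in HFD+As, against 0.06 and -0.08 in LFD and -0.04 and 0.06 in LFD+As, so the groups did not overlap. All 61 cytosolic ribosomal protein genes, a family taken by its symbols after the values were seen, had a positive difference, between 0.03 and 0.62 with a median of 0.31. Rpl24 was the 1 called, 45 had an unadjusted p below 0.05, and 25 (41%) were separate and higher. Their array medians were 0.09 and 0.30 in HFD, 0.42 and 0.41 in HFD+As, against 0.01 and -0.11 in LFD and 0.08 and 0.02 in LFD+As. Of 51 small nucleolar RNA genes, taken likewise, 46 were positive and Snord33 was the 1 called. Of the 51, 31 had an unadjusted p below 0.05 as higher, and 21 (41.2%) were separate and higher. The median was 0.43, with 0.24 in plain water and 0.52 under arsenite. By array, the median of HFD replicate 1 (0.14) lay below that of LFD replicate 1 (0.16), so the diets overlapped. The remaining high-fat arrays, between 0.33 and 0.66, lay above every low-fat array. Some members differed widely between replicates, such as Snora3, at 9.88 in HFD+As replicate 1 but 12.38 in replicate 2. Ribosomal protein genes have many processed copies in the genome and small nucleolar RNAs lie in introns of such genes, so their probes may read more than 1 transcript.

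**Figure D3:**
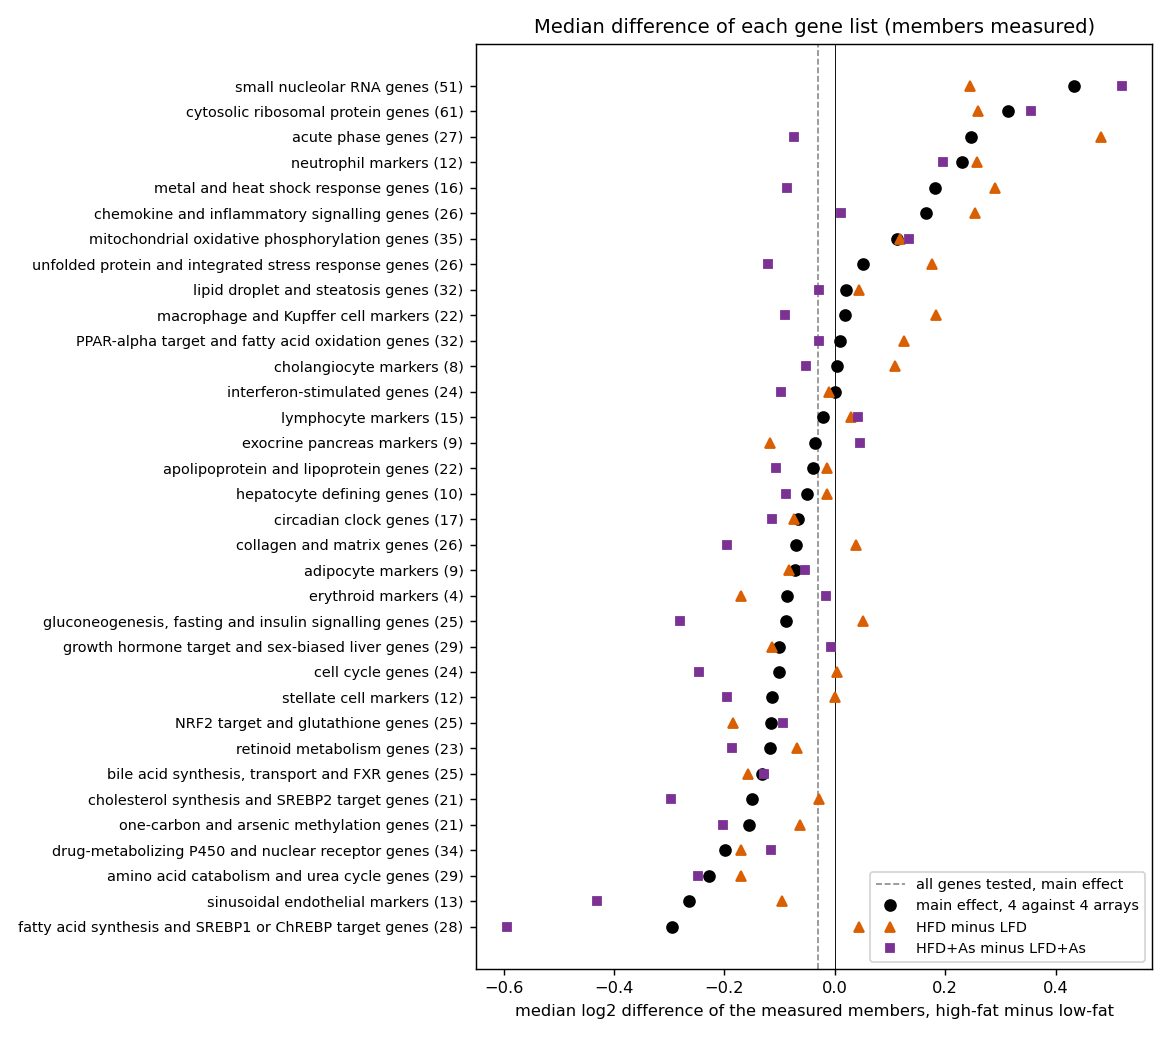
High-fat difference in log2 units of each gene list, as the median over measured members: circles for 4 against 4 arrays, triangles for plain water, squares for arsenite, and a dashed line for all genes. The 3 marks of oxidative phosphorylation nearly coincide at 0.11 to 0.13, whereas fatty acid synthesis spreads between 0.04 in plain water and -0.59 under arsenite and acute phase between 0.48 and -0.07.

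**Figure D4:**
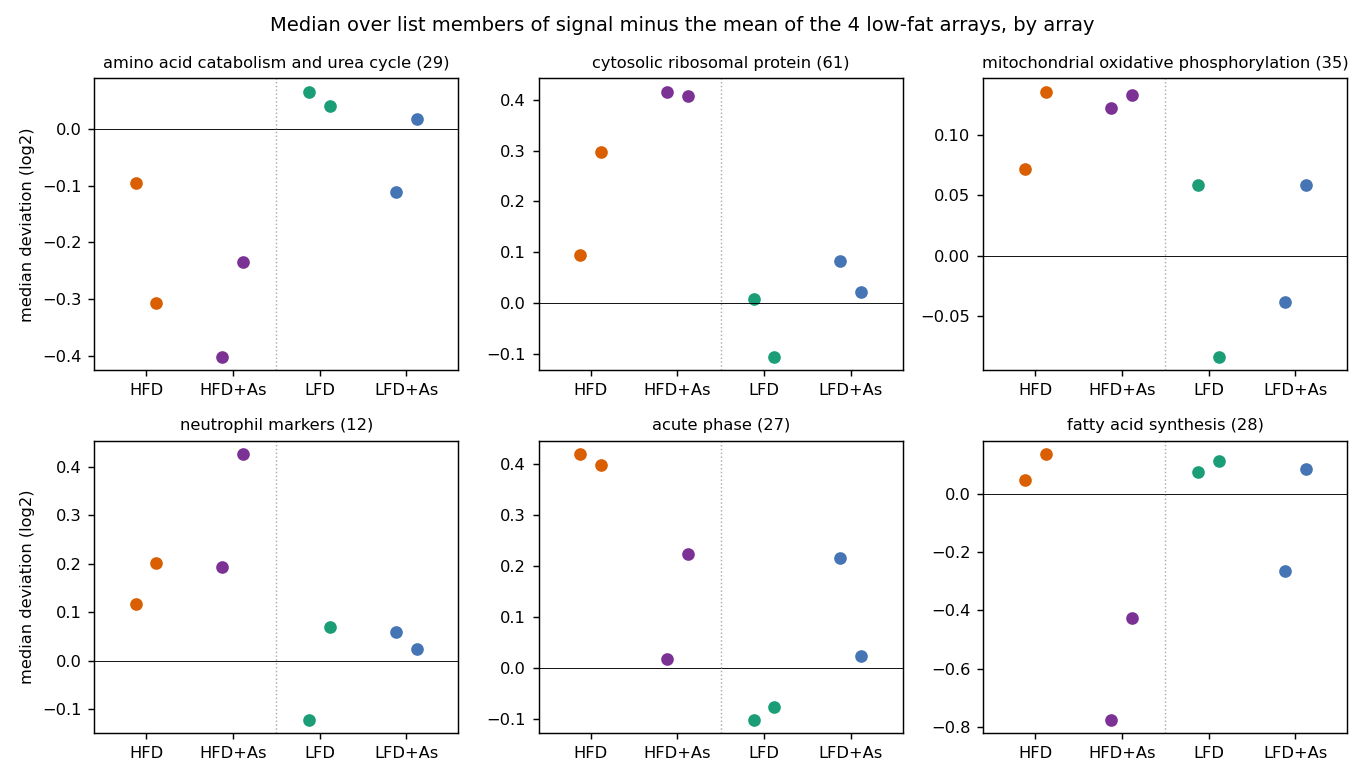
Median log2 deviation of selected gene lists in each of the 8 arrays, high-fat arrays left of low-fat arrays, where each gene's deviation is from its mean over the 4 low-fat arrays. Oxidative phosphorylation and ribosomal protein medians are higher in every high-fat array than in any low-fat array, whereas the fatty acid synthesis medians of the HFD arrays, 0.05 and 0.13, lie with those of LFD, 0.07 and 0.11.

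The difference also varied with gene length, and ribosomal protein and small nucleolar RNA genes are short, with median genomic spans of 3269 and 91 bases against 17705 over all genes. Genomic span, the length of a gene with its introns, was ranked against each gene's deviation from its mean over 8 arrays. This correlation was 0.272 and -0.0565 in HFD, -0.352 and -0.271 in HFD+As, against 0.301 and -0.0395 in LFD and 0.150 and 0.207 in LFD+As. The HFD+As arrays were the most negative. For the main effect it was -0.257, for plain water 0.0121 and for arsenite -0.365 across 19919 genes, which are not replicates. With genes cut into 10 bins by span, in the shortest (median 0.939 kb) 4.37% were separate and higher and 1.51% lower, against 0.653% and 5.02% in the longest (median 191 kb). With a smooth curve of span taken out of every array, all 11 called genes were called again among 14, and the medians stood at 0.26 for ribosomal proteins, 0.38 for small nucleolar RNAs, 0.12 for oxidative phosphorylation and -0.24 for amino acid breakdown. The part of this pattern in the single lists was not tested beyond those medians.

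**Figure D5:**
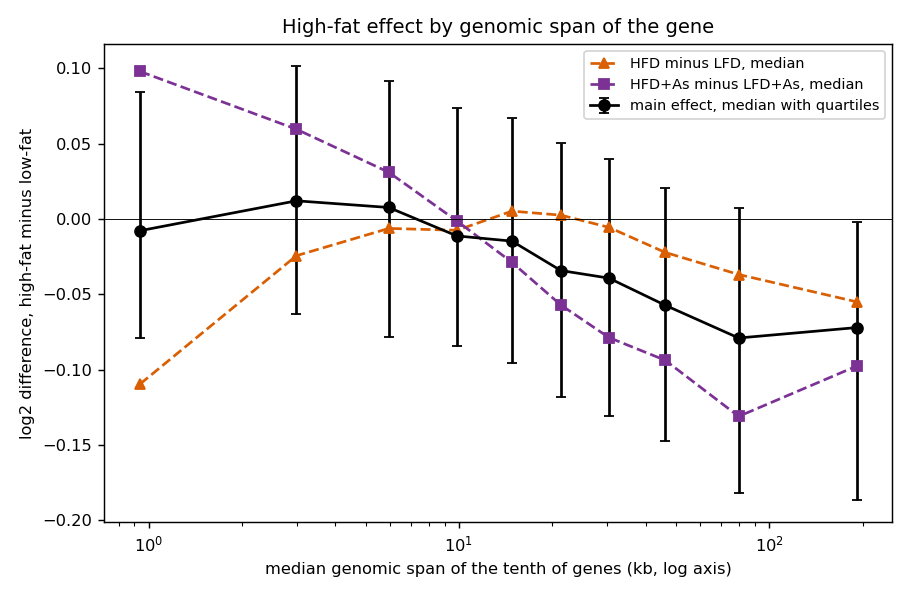
High-fat difference in log2 units against genomic span in kb on a log axis, in 10 bins of equal gene number, as medians with quartiles for 4 against 4 arrays and as medians within each water. Under arsenite the median difference is 0.10 in the bin with the shortest spans and -0.10 in the bin with the longest.

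Over both waters most inflammatory genes had a positive difference, and within arsenite water their medians lay near 0. A difference between waters was not tested for a list. Of 27 acute phase genes measured of 29 listed, 25 were positive, 10 of them with an unadjusted p below 0.05, none was called in limma, and the median was 0.48 in plain water and -0.07 under arsenite (main effect 0.25). The array medians were 0.42 and 0.40 in HFD, 0.02 and 0.22 in HFD+As, against -0.10 and -0.08 in LFD and 0.22 and 0.02 in LFD+As, which overlapped. Hamp, the iron hormone hepcidin, lay at 0.90 (SE 0.23, adjusted p = 0.118). Of 26 chemokine and inflammatory signalling genes measured of 27 listed, 19 were positive, 8 of them with an unadjusted p below 0.05. None was called in limma, and 4 were separate and higher (15.4%, against 3.37% of all genes). The median was 0.25 in plain water and 0.01 under arsenite. Those separate members were Cxcl1, a chemokine that draws neutrophils, at 0.85 (adjusted p = 0.0979), Cd14 at 0.31, the cytokine Il1b at 0.30 (adjusted p = 0.118) and Cxcl2 at 0.09. Cxcl1 had 9.42 and 9.72 in HFD, 9.39 and 9.18 in HFD+As, against 8.02 and 8.39 in LFD and 9.13 and 8.75 in LFD+As, and it was called in plain water at 1.36. Of 26 genes of the unfolded protein and integrated stress response, all measured, 15 were positive with a median of 0.05, and none was called in limma (4 higher and 3 lower at an unadjusted p below 0.05). That median was 0.18 in plain water and -0.12 under arsenite. Dnajc12, a co-chaperone, lay at 1.03 with overlapping arrays (SE 0.26, adjusted p = 0.12). Its difference was 1.65 in plain water and 0.40 under arsenite, and these differed with an adjusted p of 0.388.

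Markers of other liver cells were read beside these lists. In bulk tissue, fewer cells of a type and less RNA per cell cannot be told apart. All 12 neutrophil markers had a positive difference, 4 had an unadjusted p below 0.05, and none was called in limma. Of the 12, 2 (16.7%, against 3.37% of all genes) were separate and higher. The summed linear signal of the 12 was 1188 to 1342 in high-fat arrays and 990 to 1099 in low-fat arrays. S100a8, a calcium-binding protein abundant in neutrophils, had 6.57 and 6.97 in HFD, 7.31 and 6.93 in HFD+As, against 6.08 and 6.32 in LFD and 6.29 and 6.30 in LFD+As (difference 0.70, SE 0.12, adjusted p = 0.0719). S100a9, its partner, lay at 0.52 (adjusted p = 0.0939). Neutrophil granule genes such as Mpo, at 0.02, and Elane, at 0.08, lay near 0. Detection calls were not used here, so whether signals as dim as these lay above background is unknown. Of 22 macrophage markers 14 were positive and none was called in limma (4 higher and 1 lower at an unadjusted p below 0.05), with a summed signal of 12645 to 17584 in high-fat and 13081 to 15505 in low-fat arrays. The macrophage median was 0.18 in plain water and -0.09 under arsenite, and the array medians were 0.26 and 0.19 in HFD, -0.05 and -0.14 in HFD+As, against 0.04 and -0.06 in LFD and -0.10 and 0.10 in LFD+As. Here too the HFD arrays were the highest. Marco, a scavenger receptor of Kupffer cells, was separate at 0.39 (SE 0.08, adjusted p = 0.0886). Of 13 sinusoidal endothelial markers 2 were positive, 7 were lower and 1 higher at an unadjusted p below 0.05, with a median of -0.26 and sums of 9539 to 13413 in high-fat and 10778 to 12474 in low-fat arrays, which overlap. That endothelial median was -0.10 in plain water and -0.43 under arsenite, with array medians of 0.17 and -0.24 in HFD, -0.49 and -0.50 in HFD+As, against 0.12 and -0.03 in LFD and -0.10 and 0.00 in LFD+As. Stab2, a scavenger receptor of sinusoidal endothelium, fell under arsenite by 0.77 (adjusted p = 0.0473) and lay at -0.18 in plain water, and the test of that difference between waters had an adjusted p of 0.446. The medians of the lymphocyte, stellate, cholangiocyte, erythroid, adipocyte and pancreas lists lay between -0.11 and 0.00, and none of their genes was called in limma, with at most 1 a list at an unadjusted p below 0.05. The part that other cell types had in the inflammatory values was not tested.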

How the data were processed

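Liver RNA pools on 8 arrays (Affymetrix Mouse Gene 1.0 ST per the platform annotation) were read from the deposited table. Its log2 signals per transcript cluster came from Expression Console 1.0 of Affymetrix, which the submitters' processing notes name; the summary and normalization method and the genome build are not given in the sources used here. Values were used as deposited. Of 35556 clusters, 21789 had 1 gene symbol in the annotation, 1621 several and 12146 none, and 21766 matched RefSeq (GRCm38.p6). The cluster with the highest mean stood for its gene, which gave 19938 genes with no filter on signal.

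The main effect was fitted with limma 3.58.1 in R 4.3.3 as diet plus water on all 8 arrays (5 residual degrees of freedom, median SE 0.0958); effects within a water and their difference came from a fit of 4 group means (median SE 0.130). Benjamini-Hochberg adjustment ran over all genes at 0.05, two-sided. The number of arrays limits the precision. The code was tested on simulated data. No 2 arrays had identical values. Deviations of same-numbered arrays correlated at -0.119 to 0.352, above 0.1 in 1 of 6 pairs of groups. Replicate numbers were not used as pairs.

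Named genes were the 15 largest called changes in each direction with separate arrays and means above the 40th percentile (6.97), the smallest p where fewer than 5 passed, up to 4 called members of each of 32 lists (or 2 by p), 12 set genes and 5 a direction for the difference between waters. Predicted and small RNA genes were to be counted only; Snord33, list members named because their arrays did not overlap, and other members outside the rule were chosen after their values were seen. Members and lists were chosen with earlier results of these data known. Alternatives tried are given in the closing part.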

Additional observations from a re-analysis of the deposited data

Results flagged for a closer look

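In 5 of 176 groups of 4 arrays (88 named genes, high-fat and low-fat), 1 array stood far from the others by Dixon's gap test for 4 samples. Among 4 replicates of 1 condition, chance alone passes that test in about 1 of 20 groups, and 5 of 176 is below that rate. Each group here holds 2 plain-water and 2 arsenite arrays, so the rate is only a rough guide. Crtc2 lay at 9.643 in HFD replicate 1, against 9 to 9.093 in the other high-fat arrays. LFD replicate 1 was the array that stood apart for 3 genes: S100a8 at 6.079 (others 6.29 to 6.319), Cd3g at 7.325 (others 6.838 to 6.87) and Cd36 at 10.78 (others 10.59 to 10.6). Cyp2c23 lay at 12.99 in LFD+As replicate 1, against 13.32 to 13.36 in the other low-fat arrays. None of these 5 genes was called for the effect over both waters, and S100a8 was called under arsenite at 0.83 (adjusted p = 0.0473 in limma).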

How the results depend on the processing

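The count of called genes depended strongly on the processing. The direction of the named genes changed little, but most were picked from these same arrays for large changes or small p-values. Their kept direction is therefore no independent sign of stability. Against 11 in the main effect, limma called 91 among the 60% of genes with the highest means, 18 after quantile normalization, 1 over all clusters with 1 or several symbols (3497 of 23410 at an unadjusted p below 0.05), 172 when group means were fitted and the diet contrast averaged over waters, and 1844 with array weights. Group means with the 60% filter, added after seeing the data, gave 915. With a replicate block it was 3, with 0 higher and 3 lower, also with the span trend removed. Median centring (10), an intensity trend (15), a robust fit (12) and removal of the span trend (14) kept it within 1.5 times. Leaving out 1 array gave 0 to 856; the array that then stands alone in its group is assumed to vary like the others. In plain water (13) the 60% filter gave 55, the replicate block 31, quantile normalization 0 (1751 unadjusted) and leaving out an array 0 to 16. Under arsenite (165) the 60% filter gave 1227, span removal 14, the replicate block 345, quantile normalization 0 (3675 unadjusted) and leaving out an array 2 to 506. The difference between waters stayed at 0 except for 0 to 3 without an array. Of the 11 genes called, all were called again with the span trend removed or the averaged contrast, 10 after quantile normalization and 11 without HFD replicate 1, but 0 without LFD replicate 2. Over the alternatives of the named genes, 1018 of 1138 values kept direction and side of the threshold, 54 passed it newly, 63 no longer passed, and 3 turned sign: Phlda1 (0.0037 without LFD replicate 1; -0.278 to 0.0037 over single arrays left out) and Atp11a (-0.0080 without LFD replicate 2 and -0.092 without HFD replicate 1; -0.092 to 0.340). Only genes called for the main effect could stop passing, so all 63 of those values came from them. Most of the 1138 values were of genes not called to begin with, so the 1018 say little about how stable a call was. List medians moved by over 1 SD in 21 of 415 recomputations and changed sign in 18, all of lists with medians between -0.04 and 0.05. The cause of these shifts was not tested.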

Other observations

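Further liver functions were read by the same counts, and none of their genes was called in limma for the effect over both waters. Of 22 apolipoprotein and lipoprotein genes measured of 25 listed, 8 were positive, 3 were higher and 3 lower at an unadjusted p below 0.05, and the median was -0.04. Apoa5, which promotes triglyceride clearance, had 11.59 and 11.52 in HFD, 11.89 and 11.77 in HFD+As, against 11.23 and 11.44 in LFD and 11.42 and 11.33 in LFD+As, with every high-fat array above every low-fat array (difference 0.34, SE 0.09, adjusted p = 0.126). Apoc4, its neighbour in function as a minor lipoprotein component, lay at 0.14 in plain water and rose by 0.66 under arsenite (adjusted p = 0.047), and the difference between waters had an adjusted p of 0.44. Of 29 growth hormone target and sex-biased genes measured of 33 listed, 11 were positive, 0 were higher and 4 lower at an unadjusted p below 0.05. The 4 members whose arrays did not overlap (13.8%, against 2.94% of all genes) were all lower: the male-biased P450 genes Cyp4a12b at -0.45 and Cyp4a12a at -0.36, Igf1 at -0.12 and Cux2 at -0.07. Cyp4a12a and Cyp4a12b are near-identical copies, and their signals may be shared.

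Of 17 clock genes measured of 19 listed, 8 were positive and 3 were lower at an unadjusted p below 0.05, among them the activators Clock at -0.32 and Rora at -0.33 (adjusted p = 0.167 for both). The hour of sampling is not given in the labels. Of 16 metal and heat shock genes measured of 19 listed, 11 were positive, 6 of them with an unadjusted p below 0.05, and the median was 0.29 in plain water and -0.09 under arsenite. Hspb1, a small heat shock protein, had 9.87 and 9.43 in HFD, 10.74 and 10.49 in HFD+As, against 9.15 and 9.06 in LFD and 10.33 and 9.65 in LFD+As, so that within each water the high-fat arrays were the higher ones (difference 0.58, SE 0.15, adjusted p = 0.116). Of 26 collagen and matrix genes measured of 27 listed, 7 were positive and the median was 0.04 in plain water and -0.20 under arsenite. Bgn, the proteoglycan biglycan, lay at -0.49 (adjusted p = 0.114). Of 24 cell cycle genes measured of 26 listed, 5 were positive and the median was -0.10, and the replication helicase gene Mcm6 lay at -0.01 in plain water and fell by 0.74 under arsenite (adjusted p = 0.044). The difference of Mcm6 between waters had an adjusted p of 0.364.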
